A study of Mus musculus with 15 samples.

Results

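Littermate-only regions are stretches of open chromatin that were kept in every list of control macrophages from littermates and in no list from Ikaros-deficient (KO) macrophages, after each list was limited to the same number of hotspots. Each library came with its own list of DNase hotspots, and every KO and littermate list was shortened to its 52400 hotspots of highest tag density, the tallest point of tag coverage within a hotspot. Hotspots on chromosomes 1 to 19 that shared at least 1 bp were then merged over the 9 lists. Of 98269 merged regions, 361 (0.367%) lay in all 3 littermate lists and in none of the 6 KO lists. The members were thus chosen by the tag density ranks of the KO and littermate libraries, and this count is a description with no test. Only 67 of the 361 were absent from every KO list as deposited, so most were still listed in at least 1 KO library at a lower rank, and they are called littermate-only by rank rather than lost.

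DNase I cuts chromatin most readily where nucleosomes are displaced, as at active promoters and enhancers, and a hotspot marks a stretch with more cuts than its surroundings. Ikaros, encoded by Ikzf1, is a zinc finger protein that binds DNA and recruits chromatin-remodelling complexes such as NuRD. It is best known for its part in lymphocyte development and is also expressed in myeloid cells. Lipopolysaccharide (LPS), from the outer membrane of Gram-negative bacteria, acts on macrophages through Toll-like receptor 4 and remodels chromatin at many inflammatory enhancers.

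Macrophages were grown from the bone marrow of C57BL/6J mice and given 10 ng/ml LPS for 0, 3 or 8 h. The groups were Ikzf KO with 2 libraries at each time, littermate control with 1 library at each time, and wild type (WT) with 2 libraries at each time, 15 libraries in all. The titles give 80 U of DNase for KO, littermate and WT replicate 1 libraries and 100 U for WT replicate 2, so in WT the amount of enzyme and the replicate number cannot be told apart. The labels do not describe the KO allele, and they do not say whether replicates were separate animals or cultures, so p-values here reflect library-to-library spread alone, and that spread may be technical. The Ikzf1 locus and macrophage marker genes were not analysed here, because no gene positions of the lists' build (mm9) were used.

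The lists differed in depth of calling. KO lists held 111553 to 132279 hotspots, the littermate lists 64262, 52400 and 114427 at 0, 3 and 8 h, and the WT lists 15659 to 51834. The 3 h littermate list was therefore kept whole, and most of the 0 h littermate list was kept, so a littermate hotspot of these times needed no high rank. Shortening kept KO hotspots with a highest tag density of at least 5.09 to 6.17, but littermate hotspots down to 2.64 at 0 h, 0.452 at 3 h and 5.33 at 8 h. The 8 h lists were the most alike in this respect. The lowest Z-score listed, a score deposited for each hotspot, was 3.40 to 3.66 in KO and 3.65 to 4.54 in littermate lists. In WT lists it was 7.98 to 10.6, so the WT lists stopped at a stricter limit. Read counts are unknown, but tag densities rose in whole steps of 0.237 to 0.451, and the median littermate-only region stood 11 steps high in the littermate libraries of 0 and 3 h and 24 steps high at 8 h.

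The other classes were counted in the same way. In all 6 shortened KO lists and no shortened littermate list were 2812 regions (2.86% of all), while 20558 regions were in all 9 lists and 1697 were in all 3 littermate lists and 1 to 5 KO lists. Of the 22616 regions found in all 3 littermate lists, 1.6% were littermate-only, and 0.296% were also in none of the 6 KO lists as deposited. Absence from 6 lists and absence from 3 are not equally strict, so the 2 counts are given side by side without a comparison. When 1 common minimum of 6.17 in highest tag density replaced the equal list length, 48 regions were littermate-only and 3608 were KO-only, and 35 of the 48 were among the 361.

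Most littermate-only regions had a hotspot somewhere in the longer, deposited KO lists. None of the 6 held 67 of the 361 (18.6%, with a Wilson 95% interval of 14.9 to 22.9), against 23.1% of all merged regions. A further 175 were in 1 to 5 of these lists and 119 (33.0%) were in all 6, against 54.9% of all merged regions. Single KO libraries held between 209 and 235 of the 361, or 57.9% to 65.1%, against 63.6% to 69.4% of all merged regions in the same lists. The members' shares in single KO lists lay slightly below the background, and their share in all 6 lay well below it. Both gaps are favoured by the rule, so nothing is read from them. Members were chosen for absence from every shortened KO list, while 35463 of all merged regions were in all 6 of those lists. Of the 1697 regions in all 3 littermate lists and 1 to 5 shortened KO lists, each deposited KO list held 94.6% to 96.6%. Those regions were chosen for presence in at least 1 shortened KO list. Intervals cover the counting of regions only, and neighbouring regions are not independent. Many members lay close to the limit of the rule, since 75 (20.8%) had a KO hotspot within 1 step of the lowest value kept in at least 1 KO list and 159 (44.0%) within 3 steps.

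**Figure D1:**
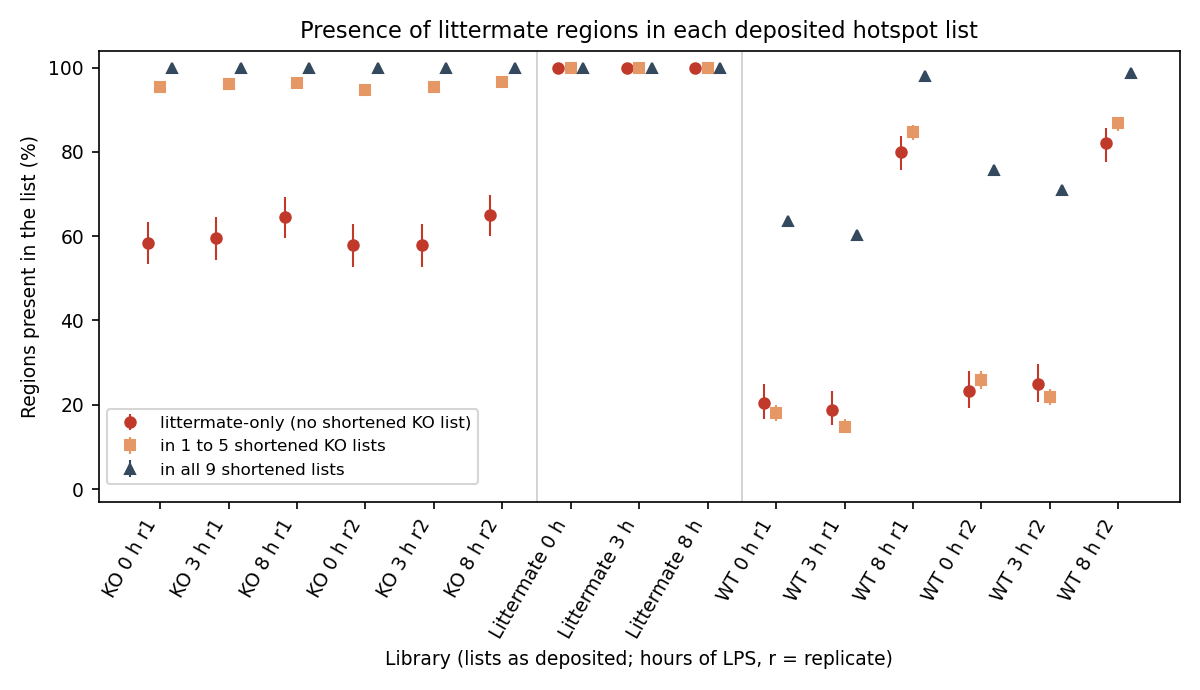
Share of regions (%, vertical axis) present in each of the 15 hotspot lists as deposited (horizontal axis, KO libraries left, littermate libraries in the middle, WT libraries right), for littermate-only regions (circles), regions in 1 to 5 shortened KO lists (squares) and regions in all 9 shortened lists (triangles), with Wilson 95% intervals. The littermate-only regions reach 57.9% to 65.1% in KO lists, 100% in littermate lists by the rule, and in WT lists 18.8% to 24.9% at 0 and 3 h and 80.1% to 82.0% at 8 h.

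The WT libraries, which took no part in the choice, held most of these regions at 8 h. WT replicate 1 listed 74 of the 361 (20.5%) at 0 h, 68 (18.8%) at 3 h and 289 (80.1%, interval 75.6 to 83.9) at 8 h. WT replicate 2 listed 84 (23.3%), 90 (24.9%) and 296 (82.0%, interval 77.7 to 85.6). Both WT replicates thus listed a minority of the regions at 0 and 3 h and most at 8 h. A region missing from a WT list may lie below its stricter Z-score limit, so absence there is not read as closed chromatin. Both 8 h lists held 274 regions (75.9%), against 37.9% of all merged regions and 95.9% of the regions in all 3 littermate lists. For both 0 h lists the count was 51 (14.1%, against 13.5% of all). For both 3 h lists it was 56 (15.5%, against 12.7% of all). These shares lay close to those of all merged regions but far below those of regions in every shortened KO and littermate list. Of those 20558 regions, both 0 h lists held 12335 and both 3 h lists 11644. Regions in every littermate list and only some KO lists lay nearer the members. Single WT lists of 0 and 3 h held 14.8% to 25.8% of them.

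The WT lists of 8 h were also the longest. They held 48084 and 51834 hotspots, and the WT lists of 0 and 3 h held at most 21377. With every WT list shortened to 15659 hotspots, the mean share over both replicates was 13.6% at 0 h, 17.2% at 3 h and 8.45% at 8 h, against 13.9% to 14.9% of all merged regions in these 6 lists. At that length the members were near the share of all merged regions at 0 and 3 h and below it at 8 h. At each time they lay far below regions in every shortened KO and littermate list, of which these WT lists held 60.2% to 64.2%. Of regions in every littermate list and only some KO lists, these WT lists held 10.8% to 15.0%. Littermate-only regions were mostly of middle rank, and in littermate lists of that length 67, 76 and 38 of the 361 remained at 0, 3 and 8 h.

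Across all WT lists, 324 regions (89.8%, against 47.2% of all) were in at least 1 list and 37 (10.2%) were in none. Other regions of all 3 littermate lists were less often in no WT list. The share was 6.48% for those in 1 to 5 shortened KO lists and 0.603% for those in all 9 lists. All 6 WT lists held 21 (5.82%, against 10.4% of all and 44.4% of the regions in all 3 littermate lists). Exactly 2 WT lists held 161, and for 154 of these the lists were those of 8 h. A further 14 were listed by both replicates at 3 and 8 h and by neither at 0 h. In both 0 h lists and no 8 h list were 5. These patterns were not counted over all merged regions. The longer WT lists of 8 h favour an 8 h pattern in any set of regions, so no time course is read from them. For comparison, both WT 8 h lists held 79.8% of the 1697 regions absent from some but not all KO lists, 97.6% of regions in all 9 lists and 8.89% of the KO-only regions.

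**Figure D2:**
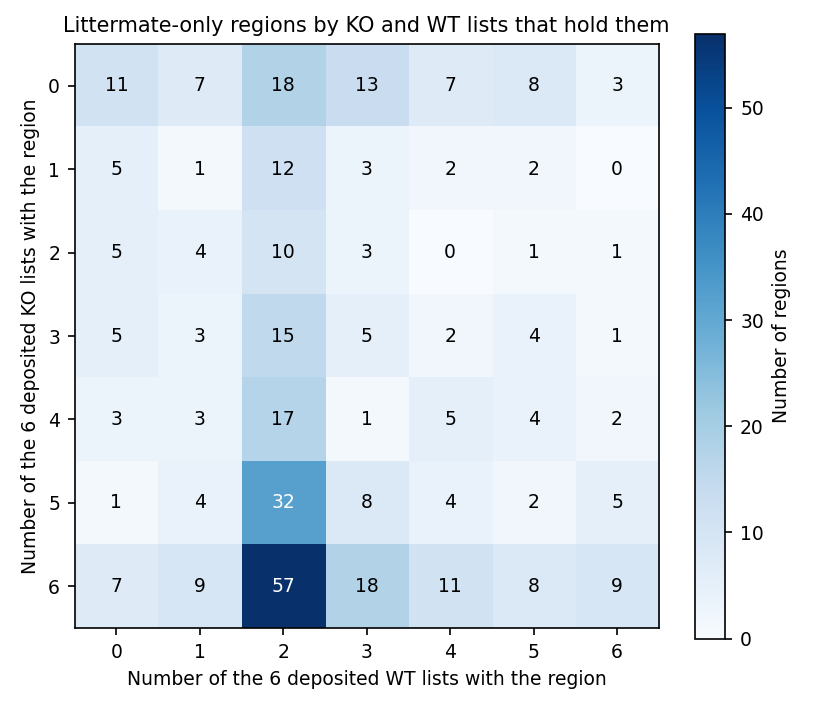
Number of littermate-only regions (cell values and shading) by how many of the 6 deposited KO lists (vertical axis, 0 at the top) and how many of the 6 deposited WT lists (horizontal axis) hold them. The largest cell, 57 regions, is in all 6 KO lists and 2 WT lists, and 3 regions are in no KO list and all 6 WT lists.

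Regions absent from every deposited KO list and regions present in all of them were both common in WT at 8 h. Of the 67 absent ones, both WT 8 h lists held 42 (62.7%), at least 4 WT lists held 18, all 6 held 3 and none held 11. Of the 119 regions in all 6 deposited KO lists, both WT 8 h lists held 101 (84.9%), at least 4 held 28 and all 6 held 9. The difference between these shares was not tested.

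Libraries that had no part in a definition were used to ask whether absence in 1 KO series recurred in the other, with WT beside it. The regions were defined again without the 3 libraries of KO replicate 1, which gave 454 regions, and then looked up in those 3 libraries and in the WT libraries, with all lists of a time shortened to the same length (17237, 15659 and 48084 hotspots at 0, 3 and 8 h). KO replicate 1 held 0.220%, 0% and 2.86% of them at 0, 3 and 8 h. WT replicate 1 held 20.5%, 18.3% and 78.6%, and WT replicate 2 held 12.8%, 14.3% and 75.3%. The KO share was below both WT shares at each of the 3 times. The mean was 1.03% ± 1.59 in KO over the 3 times (SD, n = 3 libraries) and 36.6% ± 31.4 in WT (SD, n = 6 libraries), a difference of -35.6 percentage points. The exact two-sided permutation of the KO label within times gave p = 0.037 (adjusted over 2 tests, 0.037), the smallest value that its 27 arrangements allow. The regions were chosen for absence from the 52400 highest hotspots of the other KO series, and WT lists were not chosen so. The lists compared here were shorter, so likeness between KO replicates alone favours low KO shares. The p-value therefore does not measure a genotype difference in regions picked without KO values. Whether the 3 libraries of a series share a culture or animal is unknown.

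The second test left out KO replicate 2 in place of replicate 1. Of 474 regions so defined, KO replicate 2 held 0%, 0% and 2.74% at 0, 3 and 8 h. The mean was 0.914% ± 1.58 in KO (SD, n = 3 libraries) and 37.6% ± 32.1 in WT (SD, n = 6 libraries), a difference of -36.7 points (exact permutation p = 0.037, adjusted 0.037). Both tests share the littermate and WT libraries and are not independent of each other. The limits of the first, in the choice of regions and the unknown origin of replicates, hold for the second. With the replicate block, KO was set against the WT library of the same replicate number. The exact p was then 0.25 in each test, the smallest its 8 arrangements allow. Regions in all lists went the other way by a small margin. At 0 h the held-out KO lists held 68.1% and 67.8% of them, against 62.8% to 65.9% in WT lists. At 3 h the shares were 62.6% and 62.4% in KO, against 59.3% to 60.2% in WT. At 8 h they were 98.9% and 99.0% in KO, against 97.9% to 98.5% in WT. The size of the difference depended on list length. At 0.5 times the common length it was -10.4 points without KO replicate 1 and -11.2 points without KO replicate 2. With lists as deposited the differences were 26.6 and 24.8 points, higher in KO (exact permutation p = 0.11 each), with KO lists far longer than WT lists.

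**Figure D3:**
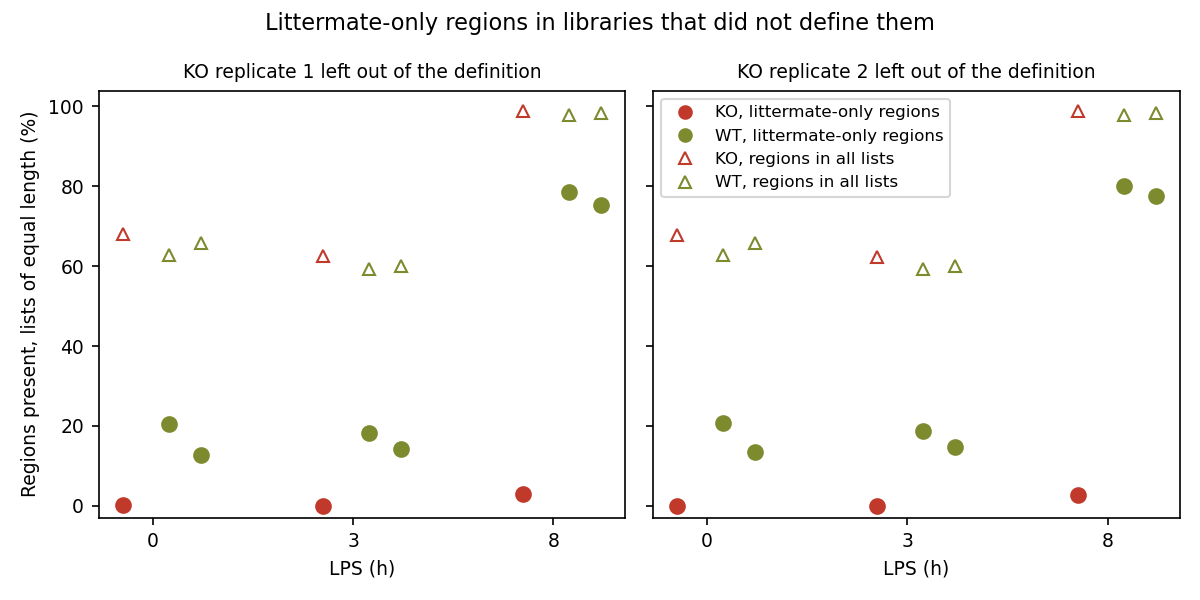
Share of regions present (%, vertical axis) by hours of LPS (horizontal axis), one point per library, in KO libraries that did not help define the regions (red, left) and in WT libraries (green, right), all lists of a time at equal length; the panels leave out KO replicate 1 and KO replicate 2. Filled circles are littermate-only regions and open triangles are regions in all lists used for the definition; the KO circles stay between 0% and 2.86%, below every WT circle of the same time.

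Where a KO hotspot was listed, its density was low by the rule. The median highest tag density was 3.82, 3.36 and 3.63 at 0, 3 and 8 h in KO replicate 1 and 3.52, 3.45 and 3.80 in KO replicate 2. It was 4.14, 4.97 and 7.99 in littermates at these times. In WT it was 6.77, 7.77 and 8.36 for replicate 1 and 6.63, 7.55 and 8.68 for replicate 2, each over the regions that the library lists. Values of unlisted regions are unknown. The rule caps KO values at 5.09 to 6.17 and sets a floor under littermate values that is higher at 8 h than at 0 and 3 h, so nothing is read from the time course of either.

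How KO and littermate values compared within a time was largely set by the rule. The littermate floor at 8 h, 5.33, lay near the KO caps of that time, while the floors at 0 and 3 h lay well below theirs. At 8 h, 260 littermate-only regions had a littermate value above every listed KO value, 99 had no KO hotspot, and 2 were not above. At 0 h, 153 were above every listed KO value, 116 had no KO hotspot and 92 were not above. At 3 h, 194 were above, 109 had no KO hotspot and 58 were not above. Those 92 and 58 regions were in the class by rank, with at least 1 KO value not below the littermate value at that time. The other KO library could be lower or list no hotspot.

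The ratios of KO to littermate are given as a description for the same reason. Over regions listed in both KO libraries of a time, the median log2 ratio of the KO mean to the littermate value was -0.24 at 0 h (175 regions), -0.38 at 3 h (172 regions) and -1.14 at 8 h (206 regions). In regions of all 9 lists it was 1.49, 1.46 and 0.24, so KO densities ran higher than littermate densities across the shared regions at 0 and 3 h. Against WT, the median log2 ratio of littermate-only regions listed in both KO and both WT libraries was -1.30 at 0 h (26 of 26 regions below 0), -1.13 at 3 h (30 of 31) and -1.15 at 8 h (169 of 171). In regions of all 9 lists it was 1.41, 1.28 and 0.20. The KO values in these ratios are capped by the rule, and the WT values took no part in it. A WT value exists, however, only where a hotspot passed the stricter Z-score limit of the WT lists. Ratios below 0 are favoured by both the cap and that limit, so these counts are a description only. Members not listed in both KO and both WT libraries, which were most members at 0 and 3 h, gave no ratio to WT. The part of library-wide density in the class at 0 and 3 h was not tested.

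**Figure D4:**
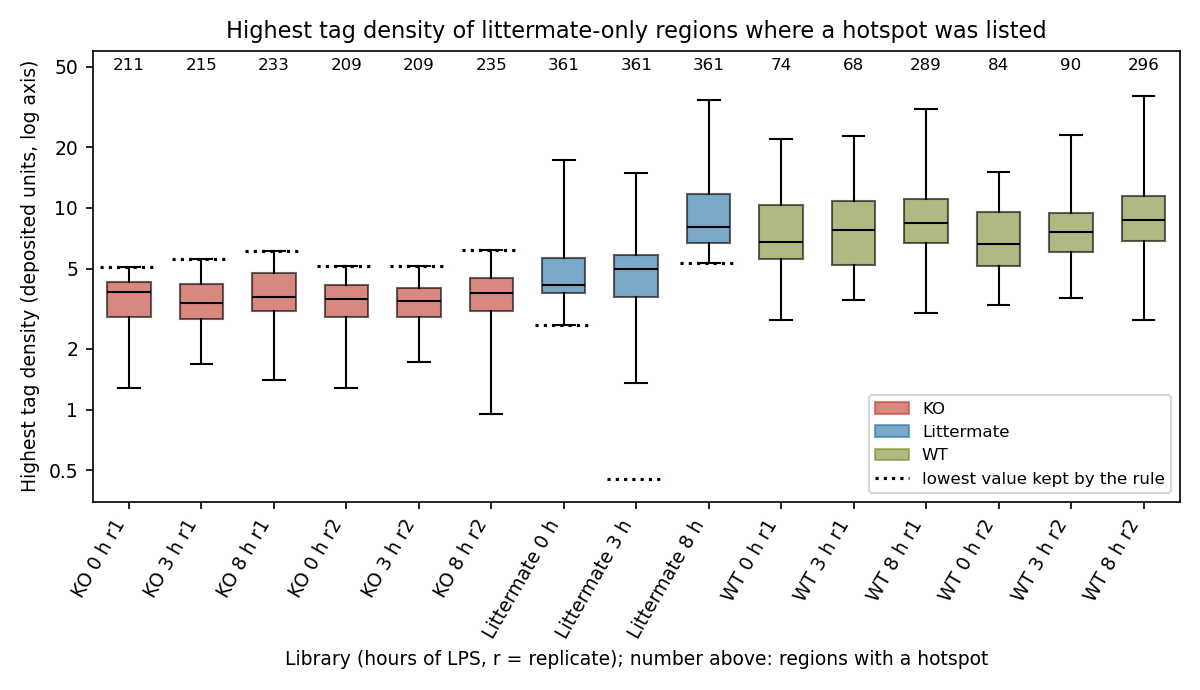
Highest tag density (deposited units, log axis) of littermate-only regions in each library that lists a hotspot there, KO left, littermate in the middle, WT right; boxes are quartiles with the median, whiskers reach the lowest and highest value, the number above is the count of regions and the dotted line is the lowest value the rule kept. KO medians lie between 3.36 and 3.82 at all times, and the littermate median is 7.99 at 8 h.

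In littermates and WT, littermate-only regions had higher tag densities at 8 h than at 0 h in the median, as did regions of all 9 lists, whose median ratios were larger. The littermate density was higher at 8 h than at 0 h in 321 of 361 regions (88.9%), with a median log2 ratio of 0.98. A log2 ratio of at least 1 was found in 169 (46.8%). In regions of all 9 lists these shares were larger, at 99.2% and 83.7%. For 3 h over 0 h the median was 0.07. In KO libraries the 8 h over 0 h medians were 0.11 for replicate 1 and 0.10 for replicate 2 (181 regions each). In WT they were 0.42 for replicate 1 (61 regions) and 0.52 for replicate 2 (74 regions). Regions of all 9 lists gave 0.25 and 0.26 in KO, 1.58 in littermates, and 1.69 and 1.31 in WT. The KO caps and the littermate floors of the rule bear on the KO and littermate ratios. The littermate value was highest at 8 h for 311 regions, at 3 h for 30 and at 0 h for 20.

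The strongest littermate-only regions follow one by one. They are numbered by their mean rank over the littermate lists, and coordinates are those of the mm9 lists. R001 (chr8:130505614-130506683) was listed in all 6 KO libraries at 2.58 to 4.48 (median 3.56), in littermates at 13.2, 7.22 and 24.0 at 0, 3 and 8 h, and in 5 WT libraries at 8.36 to 27.4 (median 10.3). Every KO value lay below every littermate and WT value.

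R002 (chr2:131994486-131995628) had no KO hotspot in any library. Its littermate values were 6.40, 11.7 and 31.6 at 0, 3 and 8 h. WT libraries listed it at 10.5 at 3 h (replicate 1) and at 30.8 and 20.8 at 8 h, and not at 0 h. Both control genotypes thus listed R002 at 8 h, with nothing listed in KO.

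R003 (chr3:87204905-87206040) was in 4 KO lists at 4.16 to 4.74, in littermates at 12.8, 5.87 and 34.3, and in 4 WT lists at 12.3 to 29.5. R004 (chr15:37861807-37862908) was in all 6 KO lists at 4.31 to 6.17 (median 4.75), in littermates at 10.2, 7.22 and 18.98, and in 4 WT lists at 4.78 to 17.0. In R003 the KO values stayed below those of both other genotypes, while in R004 they overlapped with WT. R005 (chr7:46778800-46779907) had no KO hotspot, littermate values of 7.53, 7.22 and 24.6, and 5 WT hotspots at 4.78 to 20.1.

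R006 (chr4:137434711-137436404) was in 3 KO lists at 3.07 to 4.03, in littermates at 5.65, 9.48 and 32.6, and in 4 WT lists at 8.27 to 29.8. R008 (chr5:100954956-100955855) had no KO hotspot, littermate values of 7.91, 8.13 and 17.7, and 4 WT hotspots at 5.57 to 11.4. R009 (chr4:141549474-141550804) was in 3 KO lists at 2.51 to 2.86, in littermates at 9.04, 5.87 and 24.3, and in 5 WT lists at 4.26 to 30.8. R010 (chr8:92914521-92915987) was in 2 KO lists at 1.28 and 1.68, in littermates at 8.28, 6.32 and 22.6, and in 5 WT lists at 5.16 to 24.0. In all 4 of these regions the littermate value was highest at 8 h and no KO value reached the lowest littermate or WT value.

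Of the 67 regions with no KO hotspot, 3 were in all 6 WT lists. R007 (chr13:61905136-61906284) had littermate values of 6.40, 7.22 and 29.6 at 0, 3 and 8 h, and WT values of 6.37, 6.26 and 25.1 in replicate 1 and 12.9, 7.15 and 28.5 in replicate 2. R014 (chr5:137632648-137633863) had littermate values of 11.3, 14.9 and 8.99, and WT values of 12.3, 13.3 and 13.04 in replicate 1 and 15.1, 14.7 and 12.8 in replicate 2. R035 (chr14:44495507-44496578) had littermate values of 4.14, 8.13 and 21.6, and WT values of 6.77, 7.01 and 17.1 in replicate 1 and 6.26, 6.35 and 17.0 in replicate 2. R007 and R035 were highest at 8 h in littermates and in both WT replicates, and R014 was not.

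**Figure D5:**
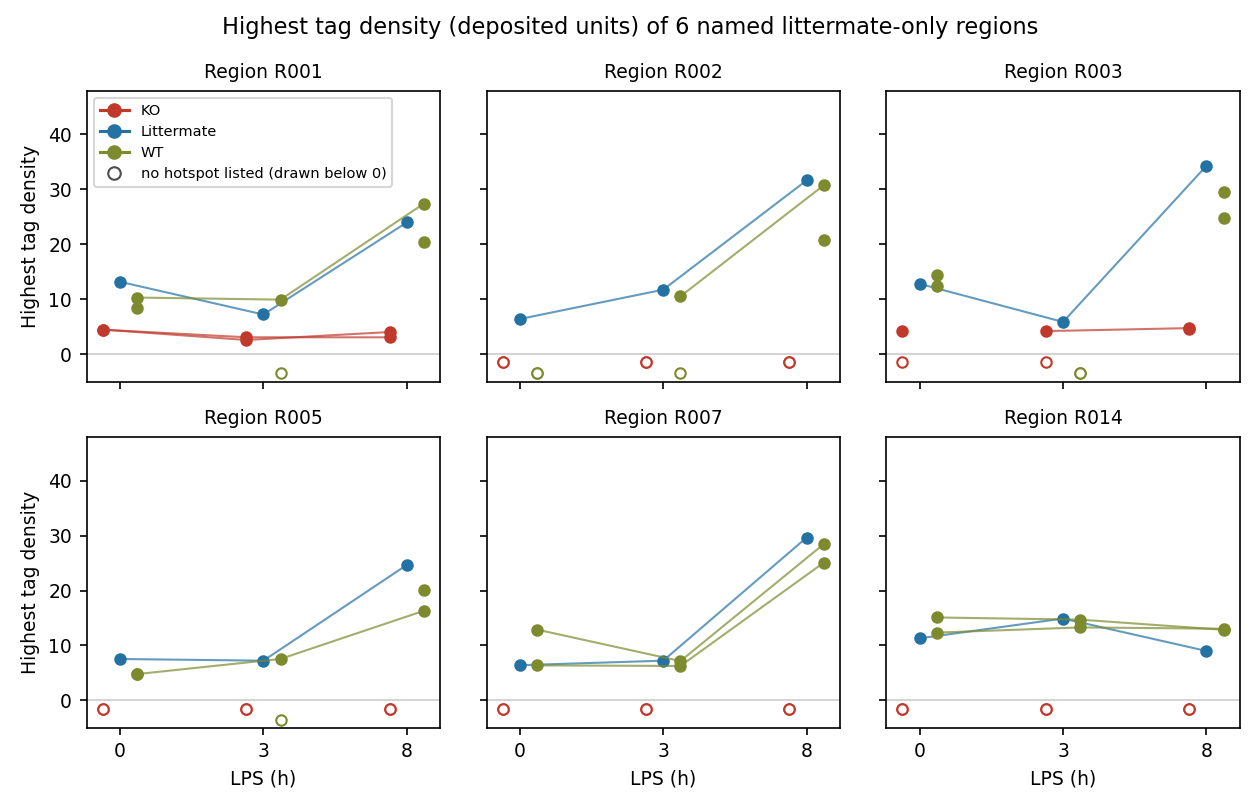
Highest tag density (deposited units, vertical axis) of 6 littermate-only regions by hours of LPS (horizontal axis) in KO (red), littermate (blue) and WT (green) libraries; lines join listed values of neighbouring times in one replicate, and open circles drawn below 0 mark libraries that list no hotspot there. R002, R005, R007 and R014 have no KO hotspot at any time, and R014 is the only one of the 6 without its highest littermate value at 8 h.

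At the weak end of the class, values were near the limits. R359 (chr1:128713657-128714757) had 5 KO hotspots at 1.19 to 2.56, littermate values of 3.01, 3.16 and 5.66, and WT values of 5.35 and 5.90 at 8 h. R360 (chr3:78863539-78864150) was in no KO or WT list, and in littermates at 3.01, 2.71 and 5.99. R361 (chr2:120908119-120908893) had 2 KO hotspots at 1.95 and 3.08, littermate values of 3.39, 1.81 and 5.99, and 1 WT hotspot at 4.17. Just outside the class, chr13:91820133-91821846 reached 6.17 in KO 8 h replicate 2, at rank 52391, with littermate values of 4.14, 3.61 and 13.3 and WT values of 8.03 and 9.72 at 8 h. Another, chr1:172089919-172091281, reached 5.12 in KO 0 h replicate 2 at rank 52381, with littermate values of 3.77, 6.77 and 6.66. The last, chr18:69094443-69095702, reached 5.60 in KO 3 h replicate 1 at rank 52378, with littermate values of 3.39, 7.68 and 14.7. All 3 lay close to the limit and had littermate values like those of the members.

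A subset ran against the common time course. In littermates 40 regions were lower at 8 h than at 0 h, and 11 of these were in no KO list and 20 in both WT 8 h lists. The 40 were partly concentrated in a few places. Of the 11 members within 1 Mb of the first or last hotspot of a chromosome, 6 were among them. All regions of the chromosome 1 cluster described below, with R052 and R071, were among them too. R050 (chr19:58187439-58188299) was in all 6 KO lists at 1.68 to 4.46, in littermates at 14.3, 14.4 and 5.66, and in WT at 20.3, 16.5 and 12.7 (replicate 1) and 12.5, 13.9 and 9.72 (replicate 2). It was lower at 8 h than at 0 h in littermates and in both WT replicates. R050 and the clusters that follow were chosen after their values were seen.

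Littermate-only regions were scattered, with 1 dense cluster. The median distance to the nearest other member was 1.46e+06 bp, and 31 members fell into 13 clusters with gaps of at most 10 kb. The largest, on chromosome 1 from 90144165 to 90171050, held 6 regions, and R052 and R071 lay at slightly lower coordinates. In these 6 the KO lists held 0 to 3 hotspots a region, at 2.52 to 4.02, while littermate values were 5.33 to 12.6. R022 was in 5 WT lists, R066 in 3, R049 in 1, and R046, R053 and R099 in none. In this cluster the littermate values at 8 h were the lowest of the 3 times in all 6 regions, unlike most members.

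Littermate-only regions were shorter than regions of all 9 lists and lay farther from them, as medians with no test. Their median length was 940 bp, against 1909 bp for regions in all 9 lists and 919 bp for all merged regions. The nearest region of all 9 lists lay at a median of 32774 bp from a littermate-only region, and at 11664 bp from another region of all 9 lists. Chromosome 1 held 10.5% of the members against 7.32% of all merged regions, chromosome 3 held 9.42% against 5.70%, and chromosome 13 held 8.59% against 4.92%. Chromosome 11 held 4.71% against 6.60%. Within 1 Mb of the first or last hotspot of a chromosome were 11 members (3.05%), against 1.89% of all merged regions.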

How the data were processed

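DNase-seq libraries were made from nuclei digested with DNase I, with size selection on a sucrose gradient and single-end sequencing, per the labels' protocols. The authors deposited 1 hotspot list per library, called separately. The submitters' processing notes name CASAVA and build mm9. Which aligner, caller and threshold were used is not given in the sources used here. A hotspot row holds, per the file headers, its position, the deposited tag density (a signal) as maximum and average, a Z-score (a score) and a p-value. The p-values were not used, and the Z-score served only as an alternative ranking and to describe where the lists stopped. Whether coordinates count from 0 or 1 is not stated. Read depth is unknown, and no interval for it can be given; the lists carry values only above a minimum, so an unlisted region has no value.

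From the lists, whole lists were shortened to 52400 hotspots, ranked by highest tag density, then by mean tag density and position. Hotspots of chromosomes 1 to 19 were merged (1 bp), and a region was present where 1 bp was covered; its value is the highest tag density of any overlapping hotspot. Named regions were the 10 of best and the 3 of worst mean littermate rank, those in all 6 WT lists and no KO list, and those just outside the rule. The shares were computed with Python 3.11.15, numpy 2.4.6, pandas 2.3.3 and scipy 1.17.1, and the region counts and the permutation test were tested on simulated data. The members and the lists used here were chosen with earlier results of these data known. Sequences, motifs, gene neighbours and cell type markers were not analysed here, since no genome or annotation of build mm9 was used.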

Additional observations from a re-analysis of the deposited data

Results flagged for a closer look

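Outliers were sought in 9 sets of 6 values, from named regions and from shares and medians over the whole class. The KO values of R004 held 1 sample far from the others. KO 8 h replicate 2 had a highest tag density of 6.17, and the other 5 KO libraries lay at 4.31 to 4.80. Chance flags about 1 in 20 such sets. The value equals the lowest one that the rule kept in that library.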

How the results depend on the processing

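The number of littermate-only regions, 361, was 129 with lists as deposited (67 shared), 111 when presence needed 50% of the region and 48 with the common tag density minimum. Leaving out libraries gave 371 to 1141, with 918, 934 and 1141 when the littermate library of 0, 3 or 8 h was left out. It was 306 at 0.5 times the length (40 of the 361 shared), 322 by Z-score (186 shared) and 353 by mean tag density (297 shared). Adding chromosomes X and Y gave 388, merging hotspots up to 200 bp apart gave 355, and taking chromosomes 1 to 19 first gave 355 (340 shared). That last choice, and leaving out chromosome ends (350), were added after seeing the data.

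The mean WT shares, 21.9%, 21.9% and 81.0% at 0, 3 and 8 h, were 13.6%, 17.2% and 8.45% in lists of the shortest WT length. They were 10.5%, 10.4% and 68.3% when 50% had to be covered, and 78.9% at 8 h for members by Z-score. Without 1 WT replicate they ranged over 20.5% to 23.3%, 18.8% to 24.9% and 80.1% to 82.0%. The 67 regions in no deposited KO list were 111 when 50% had to be covered and 83 to 89 without 1 KO replicate.

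The differences of -35.6 and -36.7 points turned to 26.6 and 24.8 points with lists as deposited. They were -10.4 and -11.2 at 0.5 times the length, -36.5 and -36.2 by Z-score, and -26.8 and -27.9 when 50% had to be covered. Without 1 WT replicate they ranged over -38.1 to -33.1 and -39.0 to -34.4. With the replicate block the values were -38.1 and -34.4 (exact p = 0.25, the smallest its 8 arrangements allow). Replicate numbers showed no pairing of KO with WT libraries: differences between replicates in KO and WT correlated at -0.082, -0.198 and -0.039 at 0, 3 and 8 h. These correlations do not show whether the libraries of 1 series at different times share a culture or animal. Each group holds 1 or 2 libraries at a time, and hotspots called near a list's limit are the least certain.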
